A study of Mus musculus with 6 samples.

Results

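The genes described here are 39 nuclear genes whose proteins keep, copy and express the DNA of mitochondria. They were chosen by symbol from a list of factors for mitochondrial DNA upkeep, transcription, RNA processing and translation, and all 39 were found among the 23420 genes of the deposited table. The mice were C57BL/6, aged 6 days, and poly(A) RNA of the humeral bone was sequenced in 3 libraries labelled Control and 3 labelled Tfam cKO. In the Tfam cKO mice Tfam is deleted with Prx1-Cre, a driver active in the mesenchyme that builds the limb skeleton, so cells of the bone outside that lineage keep the gene. Per the labels the marrow was washed out with PBS before RNA was taken, although genes of marrow cells were still measured in every library, with the sums given below. The sources used here do not give the alleles that the controls carried. Nothing in the labels ties each library to its own animal, and p-values therefore measure the spread among the 6 libraries, which may be technical. In bulk bone, fewer cells of a type and less RNA per cell cannot be told apart.

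Mitochondrial DNA encodes a small set of respiratory chain proteins together with the rRNAs and tRNAs needed to translate them, and every protein that copies, transcribes, processes and translates it is encoded in the nucleus. Tfam, mitochondrial transcription factor A, coats and compacts the DNA in nucleoids and is required at its promoters, where the polymerase Polrmt starts transcription. Many genes of this machinery are known to carry promoter sites for nuclear respiratory factor 1 (NRF1) and for nuclear respiratory factor 2, the ETS-family factor GABP.

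Promoter sequences were shown because these sites are what the genes are best known to share, and 1 promoter with a match stands for each role. RefSeq sequences (GRCm38.p6, the patch release of mm10) matched 34 of the 39 members. Each window below runs from 150 bases before the annotated start through the first 30 transcribed bases, 5′ to 3′ on the gene's own strand. The windows are chr10:71238015-71238194 (minus strand) for Tfam, chr8:104248529-104248708 (minus) for Tk2, a kinase of mitochondrial nucleotide supply, and chr10:79746552-79746731 (minus) for Polrmt. They are chr12:87443746-87443925 (plus) for Slirp, an RNA stability factor, and chr7:126487205-126487384 (plus) for Tufm, the elongation factor that brings tRNAs to the mitochondrial ribosome. Capitals mark the ETS motif, CCGGAAG, which reads CTTCCGG on the other strand. In Polrmt they also mark a spelling of the core of the NRF1 motif, GCATGCG, which appears there as CGCATGC. Other spellings of that motif were not searched and stay in lower case.
Tfam: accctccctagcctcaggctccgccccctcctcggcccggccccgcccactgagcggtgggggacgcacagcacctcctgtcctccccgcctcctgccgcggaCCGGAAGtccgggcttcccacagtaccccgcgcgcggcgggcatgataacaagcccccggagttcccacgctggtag
Tk2: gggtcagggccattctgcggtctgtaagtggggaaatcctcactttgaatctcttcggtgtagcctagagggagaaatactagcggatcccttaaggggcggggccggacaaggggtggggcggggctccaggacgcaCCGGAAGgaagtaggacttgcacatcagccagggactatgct
Polrmt: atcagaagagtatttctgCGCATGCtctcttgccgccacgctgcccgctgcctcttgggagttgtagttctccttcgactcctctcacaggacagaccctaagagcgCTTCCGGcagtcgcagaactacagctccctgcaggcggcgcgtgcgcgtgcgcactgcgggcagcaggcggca
Slirp: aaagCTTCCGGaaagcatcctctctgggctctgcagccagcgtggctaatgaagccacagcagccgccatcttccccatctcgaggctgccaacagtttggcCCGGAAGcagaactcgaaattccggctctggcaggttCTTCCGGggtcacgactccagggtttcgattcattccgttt
Tufm: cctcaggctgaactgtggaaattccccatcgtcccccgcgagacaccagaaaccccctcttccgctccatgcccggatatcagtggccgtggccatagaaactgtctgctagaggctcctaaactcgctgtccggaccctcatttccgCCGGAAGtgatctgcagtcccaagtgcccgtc
In these promoters the ETS motif began 47 bases before the start of Tfam, 12 before that of Tk2, 43 before that of Polrmt and 2 before that of Tufm. Slirp had 3 matches, at 146, 48 and 11 bases before the start.

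The ETS motif, searched on both strands from 250 bases before to 50 after the start, was in 16 of the 34 member promoters (47.1%). It was in 9.93% of all 27025 gene promoters and in 18.1% of the 10586 that belong to genes tested for expression here. Of the 16 promoters, 14 had a match within 50 bases of the start (87.5%), against 62.3% of the tested genes whose promoters hold the motif. That window was chosen after the positions were seen. The median GC content was 59.7% for member promoters and 60.3% for promoters of tested genes. The NRF1 core, searched only as the letters GCATGCG on either strand, was in 3 member promoters (8.82%). These were the promoters of Polrmt, Tfb2m and Fastkd3, and the share among promoters of tested genes was 6.86%. NRF1 sites spelled otherwise were not searched, so these shares do not count all possible sites. The pair of matches in Tfb2m overlap each other, and no match of 1 motif overlapped a match of the other. A match is a run of letters and does not show that a factor binds there.

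**Figure D1:**
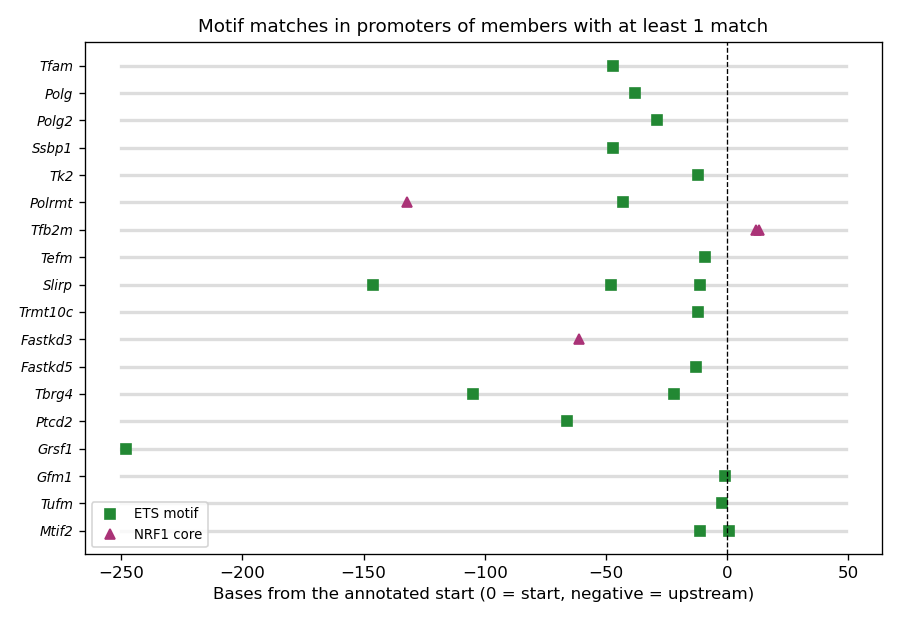
Positions of ETS motif matches (squares) and NRF1 core matches (triangles) in the promoters of the 18 members with a match of either kind, in bases from the annotated start (dashed line at 0). Grey bars span the window searched, and most squares sit just upstream of the start.

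Each library held 1441152 to 1714770 reads assigned to genes, and the 39 members together took 0.114% to 0.127% of them. Levels are the authors' normalized counts, and fold changes are on the log2(normalized count + 1) scale. The members had a median level of 39.04 over the 6 libraries, close to the median of 41.8 over all 14438 genes tested. The tissue's defining markers were present, with the summed level of 8 osteoblast genes at 151053 to 187151 in Control and 86327 to 98663 in Tfam cKO. Most of that sum was Col1a1 (mean 80953 in Control and 37653 in Tfam cKO) and Col1a2 (80784 and 35637). Of the 8 genes, 3 were higher and 3 lower in Tfam cKO, so the sum does not stand for all of them. The 4 osteocyte markers summed to 2999 to 3904 and 3324 to 4841, with none past the threshold and 3 at an unadjusted limma p under 0.05. Markers of other cells, those of the marrow among them, were measured in every library, and some of them differed between the groups. The 7 B lineage genes were all lower, summing to 586 to 834 in Control and 107 to 196 in Tfam cKO. Of 6 genes of proliferating cells 5 were lower (4188 to 5427 against 2573 to 3350), as were 3 of 7 neutrophil genes (8778 to 11247 against 5969.6 to 9204). Of the 7 erythroid markers 5 were in the table and 3 could be tested. They summed to 4377 to 6441 in Control and 2845 to 4806 in Tfam cKO, 1 was lower, and the globin genes Hba-a1 and Hba-a2 were listed at 0 throughout. Of the 5 macrophage and osteoclast genes found, 2 were higher (12660.2 to 14098 against 15523 to 19756), as was 1 of 5 chondrocyte genes (456 to 543 against 496 to 1113). The 6 skeletal muscle genes spread widely within both groups (986 to 6206 and 1057 to 9045), and 0 of them passed, also at an unadjusted limma p under 0.05. The part of these other cells in the values below was not tested.

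Tfam was lower in Tfam cKO humeri and was the only 1 of the 39 members past the threshold. Its normalized counts were 61.3, 72.1 and 78.6 in Control replicates 1 to 3 and 28.1, 46.1 and 47.6 in Tfam cKO. The groups did not overlap, and Tfam cKO replicate 1 was the lowest library. The difference was -0.81 ± 0.21 (SE) on the log2 scale, with a 95% interval from -1.27 to -0.36 and a limma adjusted p of 0.0246. The Tfam cKO mean was 57.5% of the Control mean. A two-sided exact permutation test over the 20 arrangements of the libraries gave p = 0.1, and no smaller value is possible with groups of 3.

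What this count can show of the deletion is limited by which bases it covers, and the positions of single reads are not known. Tfam (mm10 chromosome 10, positions 71225477 to 71238044, minus strand) has 7 exon blocks of 3918 bases in the deposited table. By the GENCODE vM21 annotation 729 of those bases (18.6%) are coding. The last exon, 71225477 to 71228699, holds 3223 bases, 82.3% of the total, of which 138 are coding and the rest lie in the 3′ UTR. The sources used here do not say which exons are deleted, and a shortened transcript that keeps the last exon would still be counted. Dropping Control replicate 1, 2 or 3 ended the call (adjusted p = 0.0503, 0.0704 and 0.107), as did dropping Tfam cKO replicate 1 (0.0748). It did not hold with DESeq2 either (0.0586), and edgeR gave 0.0198. The direction was the same in every one of these fits, and the authors' deposited table gives Tfam a q-value of 0.00802.

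The other 38 members did not pass, 22 with a point estimate above 0 and 16 below. Over all 14438 genes 12.4% were called, 6.42% higher and 6.01% lower, so 1 call among 39 members lies below the background share. At an unadjusted limma p under 0.05 the members numbered 4 (Tfam, Lrpprc, Ptcd2 and Fastkd5), where 27.2% of all genes tested fell under that value. The groups did not overlap for 6 members (Tfam, Slirp, Ptcd2, Fastkd5, Grsf1 and Mtrf1), 15.4% of them, against 32.1% of all genes. The median log2 fold change was 0.05 over the members and 0.01 over all genes tested. Point estimates of 25 of the 39 lay within 0.25 of 0 on the log2 scale. The 95% interval stayed within 0.5 of 0 for 10 members and within 1 for 32, so for the remaining 7 a change larger than 1 lies inside the interval. The summed level of all 39 was 1876 ± 58.3 in Control and 1918 ± 58.5 in Tfam cKO (SD, n = 3 each). No member other than Tfam was called in any of the 17 fits run, nor by the q-value in the authors' deposited table, which called 6.62% of all 23420 genes. DESeq2 called 0 of the 39 and 9.09% of all genes with an adjusted p, while edgeR called 1 of the 36 it tested and 15.8% of all genes.

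**Figure D2:**
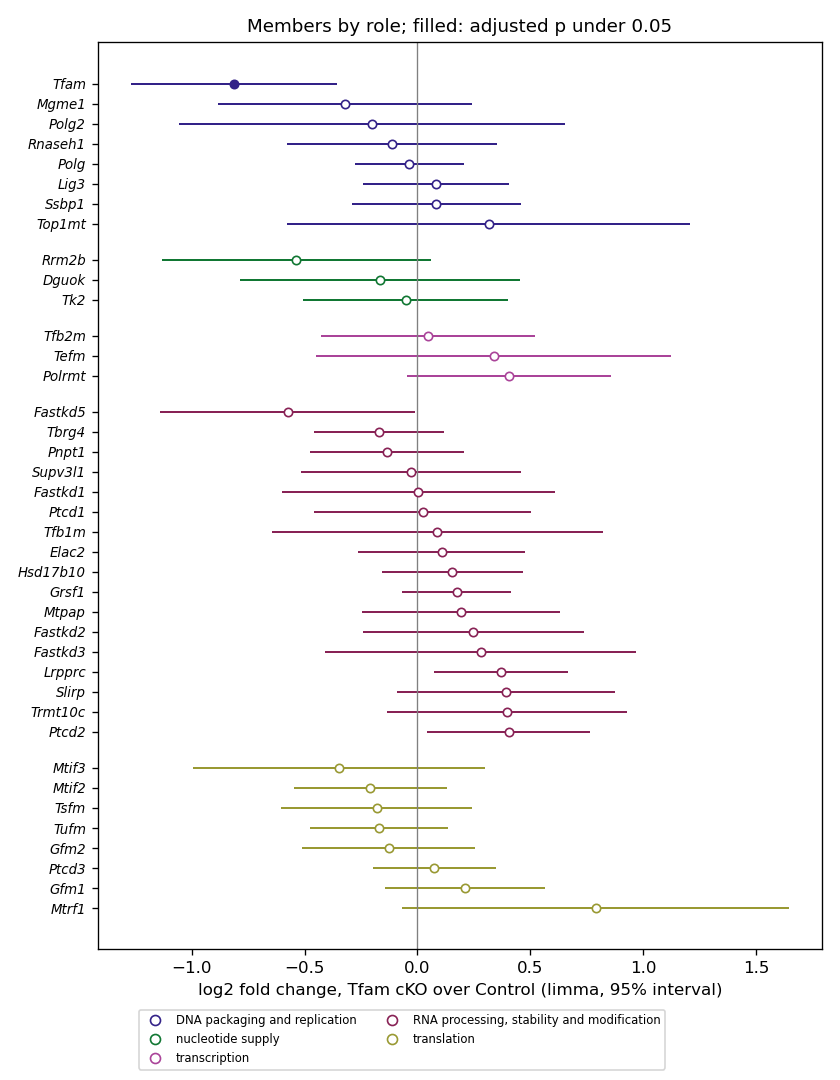
Log2 fold change of Tfam cKO over Control for the 39 members, ordered within each role, with 95% intervals from limma. The filled point, Tfam at -0.81, is the only 1 with an adjusted p under 0.05, and the other 38 points lie between -0.58 and 0.79.

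Among the proteins that copy mitochondrial DNA, Polg, the catalytic subunit of its polymerase, had nearly equal levels in all libraries. Its counts were 129, 125 and 127 in Control and 124, 127 and 119.6 in Tfam cKO, with a log2 fold change of -0.04 and a 95% interval of -0.28 to 0.21. Polg shares 398 of its 4596 counted bases with Fanci on the opposite strand, and whether the counting used strand is not stated. Mgme1, an exonuclease that trims DNA ends after replication, had the next smallest p after Tfam in this role, at 26.1, 21.5 and 20.9 in Control and 22.7, 15.1 and 16.9 in Tfam cKO. Tfam cKO replicate 1 lay inside the Control range, and the log2 fold change was -0.32 (95% interval -0.89 to 0.24, adjusted p = 0.461). The single-strand binding protein Ssbp1 (log2 fold change 0.08), the ligase Lig3 (0.08) and Rnaseh1, which removes RNA primers (-0.11), had intervals within 0.6 of 0. Polg2, the accessory subunit of the polymerase (-0.20), and the topoisomerase Top1mt (0.32) were measured loosely, from 45 and 93 reads in all 6 libraries, and their intervals ran from -1.06 to 0.65 and from -0.58 to 1.21. The 8 genes of this role, Tfam included, summed to 394 ± 15.6 in Control and 366 ± 16.2 in Tfam cKO. Tfam alone went from a mean of 70.7 to 40.6, so the sum fell by no more than Tfam did. Of the 8, 3 had estimates above 0 and 5, Tfam among them, below.

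The 3 genes of nucleotide supply, which make the building blocks for DNA synthesis, all had estimates below 0, and none passed. Rrm2b, the small subunit of ribonucleotide reductase used outside S phase and a known p53 target, was at 40.2, 29.04 and 24.9 in Control and 27.1, 15.1 and 22.2 in Tfam cKO. Control replicate 3 lay below Tfam cKO replicate 1, so the groups overlapped, with a log2 fold change of -0.54 (95% interval -1.13 to 0.06, adjusted p = 0.229). Dguok, a kinase of purine deoxynucleosides, was at 27.1, 28.1 and 16.9 against 28.1, 18.8 and 16.9, a difference of -0.17 on the log2 scale (95% interval -0.79 to 0.45). Tk2, the thymidine kinase of mitochondria, had 35.9 ± 2.23 against 35.1 ± 7.98, or -0.05 (-0.51 to 0.40).

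The 3 genes of the transcription machinery all had estimates above 0, and none passed. Polrmt was at 30.1, 28.1 and 37.8 in Control and 34.6, 46.1 and 47.6 in Tfam cKO. Only Control replicate 3 lay above the lowest Tfam cKO library, and the log2 fold change was 0.41 (95% interval -0.05 to 0.86, adjusted p = 0.233). Tfam, its partner at mitochondrial promoters, was the gene lower in the same Tfam cKO libraries. Tefm, an elongation factor, was at 11.05, 5.62 and 7.96 against 8.66, 13.2 and 9.52, with 56 reads in all and a log2 fold change of 0.34 (-0.45 to 1.13, adjusted p = 0.601). Tfb2m, which opens the promoter, was at 43.1 ± 10.6 against 44.3 ± 8.65, or 0.05 (-0.43 to 0.52).

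None of the 17 genes of RNA processing and stability, the largest role, passed, and the groups did not overlap for 4 of them (23.5%, below the 32.1% of all genes). Lrpprc, which with its partner Slirp keeps mitochondrial mRNAs stable, had the smallest p of the role, at 117, 111 and 146 in Control and 143, 162 and 179 in Tfam cKO. Only Control replicate 3 lay inside the Tfam cKO range, and the log2 fold change was 0.37 ± 0.14 (SE, 95% interval 0.07 to 0.67, adjusted p = 0.0986). Slirp was at 24.1, 26.2 and 19.9 against 27.1, 32.0 and 33.9, with a log2 fold change of 0.39 (-0.09 to 0.88, limma adjusted p = 0.284). The point estimates of the partners were close, but Polrmt (0.41), Ptcd2 (0.40) and Trmt10c (0.40) had similar ones. The Slirp groups were separated by less than 1 normalized read, and 122 of its 419 counted bases overlap Nrp and 15 overlap Snw1, both on the opposite strand.

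Ptcd2, a pentatricopeptide protein that in mice is needed to process the cytochrome b transcript, was at 39.2, 37.5 and 38.8 in Control and 54.1, 48.0 and 51.8 in Tfam cKO. All Tfam cKO libraries were above all Control libraries, and the spread within Control was small (SD 0.90). The log2 fold change was 0.40 ± 0.17 (95% interval 0.04 to 0.77, adjusted p = 0.137). Fastkd5, which cleaves transcripts that lack a tRNA at their border, had an estimate below 0, at 21.1, 25.3 and 21.9 against 12.98, 14.1 and 17.99. Its groups did not overlap either, with a log2 fold change of -0.58 ± 0.26 (-1.14 to -0.01, adjusted p = 0.175), and 259 of its 3164 counted bases are shared with Ubox5 on the same strand. Grsf1, an RNA-binding protein of mitochondrial RNA granules, was at 134, 135 and 142 against 157, 145 and 162, or 0.17 (-0.07 to 0.41, adjusted p = 0.343). Fastkd5, Slirp, Grsf1, Polg and Tufm were singled out after their values were seen.

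**Figure D3:**
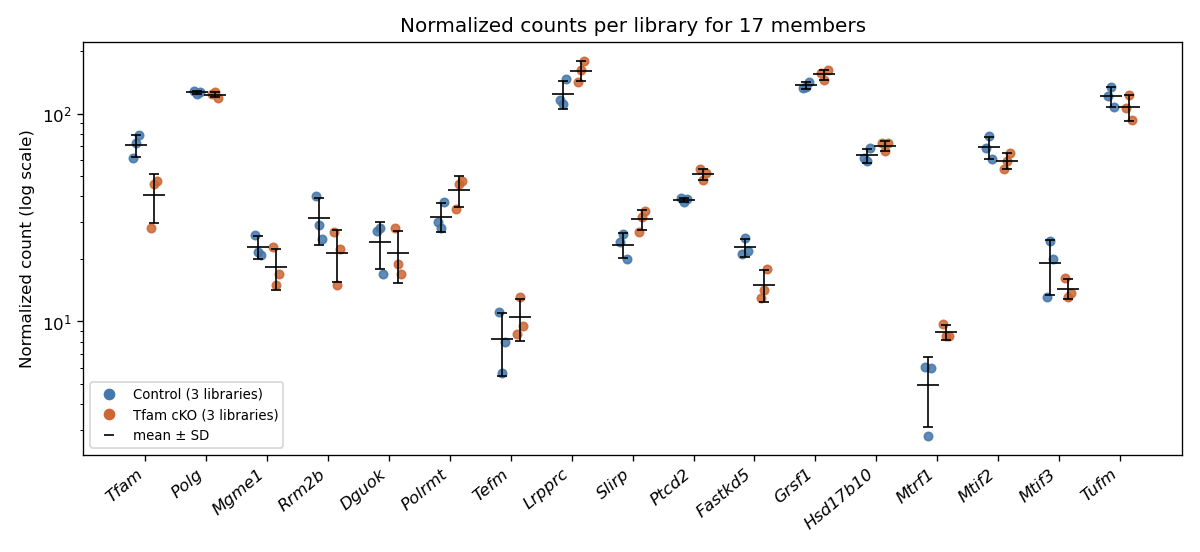
Normalized counts (log scale) of 17 members in each of the 3 Control and 3 Tfam cKO libraries, with mean ± SD. Among these genes the groups are apart for Tfam, Slirp, Ptcd2, Fastkd5, Grsf1 and Mtrf1, and overlap for the others.

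The members that take part in cutting tRNAs out of the long mitochondrial transcripts had estimates above 0 with intervals that span 0. Hsd17b10, a subunit of mitochondrial RNase P that is also a dehydrogenase, was at 61.3, 59.0 and 68.6 in Control and 72.5, 65.9 and 71.9 in Tfam cKO, or 0.15 (95% interval -0.16 to 0.47). Its partner Trmt10c, a tRNA methyltransferase, had 24.2 ± 3.62 against 32.7 ± 8.70 (0.40, -0.13 to 0.93), and Elac2, which cuts at the other end of the tRNA, 48.6 ± 5.48 against 52.4 ± 5.41 (0.11, -0.26 to 0.48). The degrading pair Pnpt1, an exoribonuclease, and Supv3l1, its helicase, had estimates of -0.14 (-0.48 to 0.20) and -0.03 (-0.51 to 0.46). The poly(A) polymerase Mtpap was at 44.2 ± 7.16 against 50.9 ± 10.2 (0.19). The remaining 6 of this role were Tfb1m, a methyltransferase of the small ribosomal RNA, the FASTK-family members Fastkd1, Fastkd2, Fastkd3 and Tbrg4, and Ptcd1. Their estimates lay between -0.17 (Tbrg4) and 0.28 (Fastkd3). The 17 genes summed to 822 ± 49.3 in Control and 908 ± 34.5 in Tfam cKO, and 13 had estimates above 0 and 4 below.

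Of the 8 translation factors none passed, with 3 estimates above 0 and 5 below. Mtrf1, a release factor, had the smallest p at 6.03, 2.81 and 5.97 in Control and 9.74, 8.47 and 8.46 in Tfam cKO. The groups did not overlap, but the gene had 41 reads over the 6 libraries, and the log2 fold change of 0.79 had a 95% interval from -0.07 to 1.65 (adjusted p = 0.221). Mtif2, the initiation factor that places the first tRNA, was at 68.3, 77.7 and 60.7 against 54.1, 59.3 and 64.5, or -0.21 (-0.55 to 0.13, adjusted p = 0.428). Mtif3, the factor that splits the ribosome before initiation, was at 13.1, 24.4 and 19.9 against 16.2, 13.2 and 13.8, or -0.35 (-0.995 to 0.297). Control replicate 1 was the lowest of all 6 for Mtif3, below every Tfam cKO library, while the other Control libraries were the highest, and 781 of its 5099 counted bases overlap Gtf3a on the opposite strand.

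The elongation factors and the last of the translation genes had intervals that span 0. Tufm was at 122, 135 and 107 in Control and 107, 123 and 93.1 in Tfam cKO, or -0.17 (95% interval -0.48 to 0.14), and Tsfm, which recharges it, had 41.6 ± 4.37 against 36.7 ± 5.63, or -0.18 (-0.60 to 0.24). Gfm1, the translocase, was at 80.7 ± 10.9 against 94.0 ± 17.2, or 0.21 (-0.14 to 0.57). Gfm2, its relative in ribosome recycling, was at 62.7 ± 9.51 against 57.4 ± 10.04, or -0.13 (-0.51 to 0.26). Ptcd3, a protein of the small ribosomal subunit, was at 85.9 ± 3.79 against 90.6 ± 3.29, or 0.08 (-0.20 to 0.35). The summed level of the translation factors was 485 ± 31.1 in Control and 469 ± 22.6 in Tfam cKO.

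Compared per kilobase of counted exon, the members spanned a wide range of levels. These levels take reads as spread evenly over the counted bases, which could not be checked. The labels give 50 ng of RNA for each library, with an RNA integrity number above 6.7. In Control, Hsd17b10 (69.1 normalized counts per kilobase) and Tufm (68.3) were highest and did not differ beyond their spread, with library ranges of 64.8 to 75.3 and 60.5 to 75.9. Slirp (55.9) and Grsf1 (48.3) followed, with ranges that also touch (47.5 to 62.6 and 47.1 to 50.2). The lowest in Control were Mtrf1 (2.65), Mtif3 (3.75) and Polg2 (4.95), and over all 6 libraries Mtif3 was lowest (3.28). Tfam stood at 18.03 per kilobase in Control, rank 17 of 39, between Rnaseh1 (21.0) and Tfb2m (17.6), and at 10.4 in Tfam cKO, rank 27. Its Control range of 15.6 to 20.1 overlapped that of Tfb2m (14.8 to 22.6). Polrmt stood at 8.51 per kilobase in Control and 11.4 in Tfam cKO, so the mean of Tfam was above that of Polrmt in Control and below it in Tfam cKO. The library ranges of the pair were apart in Control (Polrmt 7.47 to 10.05) and overlapped in Tfam cKO (7.18 to 12.2 for Tfam, 9.20 to 12.7 for Polrmt).

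**Figure D4:**
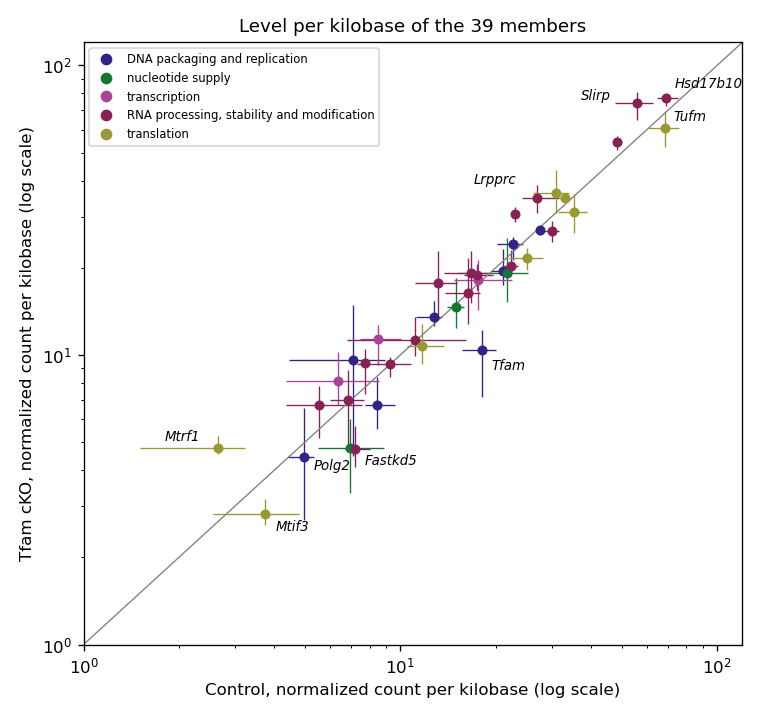
Level of each member per kilobase in Control (x axis) and Tfam cKO (y axis), both on log scales, as means with bars from the lowest to the highest of 3 libraries, coloured by role. The diagonal marks equal levels, and Tfam lies below it at 18.03 against 10.4.

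Members whose promoters hold the ETS motif did not share a direction. Of the 16, 8 had estimates above 0 and 8 below, with a median log2 fold change of 0.02, against 12 above and 6 below with a median of 0.06 for the 18 without it. Of the factors that read these sites, Nrf1 (log2 fold change -0.16, adjusted p = 0.538), Gabpa (0.14, adjusted p = 0.503) and Gabpb1 (-0.23, adjusted p = 0.437), which were singled out with their values known, were not called. Gabpb2, which encodes a further beta subunit of GABP, fell from 303 ± 43.8 to 186 ± 16.2 (log2 fold change -0.69 ± 0.12, limma adjusted p = 0.00334), with all Tfam cKO libraries (171, 203 and 185) below all Control libraries (352, 267 and 289).

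The regulator list of 19 genes held regulators of mitochondrial biogenesis and, besides them, Lonp1, Clpx, Nfe2l1 and Nfe2l2. Of the 19, 2 were higher, Lonp1 and Nfe2l1, and 1, Gabpb2, was lower. The median over the list was 0.02 on the log2 scale. The 3 called are 15.8% of the list, close to the 12.4% called over all genes (6.42% higher and 6.01% lower). Lonp1, the matrix protease known to degrade Tfam protein, rose from 147 ± 3.25 to 224 ± 18.1 (0.60 ± 0.11, adjusted p = 0.00347). Its values were 149, 143 and 149 in Control and 226, 205 and 241 in Tfam cKO, well apart. Nfe2l1, a transcription factor of proteasome genes and a different gene from Nrf1, rose from 248 ± 18.5 to 507 ± 16.1 (1.03 ± 0.10, limma adjusted p = 5.90e-05). Ppargc1a, a coactivator of mitochondrial biogenesis singled out after its values were seen, was near the lower limit of the assay at 2.34 against 4.14 and was not called (adjusted p = 0.780).

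Of 58 further factors of mitochondrial gene expression that are in the table and are not members, 3 were lower and 0 higher, and their median was 0.08 on the log2 scale. The 3 called are 5.17% of the list, against 12.4% of all genes. Mterfd2, named Mterf4 in RefSeq, a factor of mitochondrial ribosome assembly, was at 62.3, 51.5 and 96.5 in Control and 33.5, 34.8 and 32.8 in Tfam cKO (-0.98 ± 0.22, adjusted p = 0.0109). Dna2, a nuclease and helicase used in nuclear and mitochondrial replication, fell from 108 ± 22.2 to 63.1 ± 7.27 (-0.75 ± 0.17, adjusted p = 0.0130). Mrm1, which methylates the large mitochondrial rRNA, fell from 63.1 ± 14.3 to 36.3 ± 5.03 (-0.77 ± 0.20, adjusted p = 0.0241). In all 3 the groups did not overlap, while the Control libraries were more spread than those of Tfam cKO. Over the 58 factors the groups did not overlap for 11 (5 higher and 6 lower), or 19.0%, against 32.1% of all genes. Only 1 of the 3 calls was left when Control replicate 1, Tfam cKO replicate 3 or Control replicate 3 was dropped, with adjusted p up to 0.0779 for Dna2, 0.0528 for Mterfd2 and 0.131 for Mrm1, and Mrm1 was at 0.0767 with DESeq2. Markers of proliferating cells and of the B lineage were lower in the same Tfam cKO libraries, with the ranges given above, and their part in these falls was not tested.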

How the data were processed

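The libraries were directional and poly(A)-selected (NEBNext Ultra II kit), per the labels' protocols, and were read on an Illumina MiSeq, per the design text. The submitters' processing notes list mm10, TopHat and Cufflinks with no role or version. The authors deposited 1 table of 23420 genes with a normalized signal per library, that is, read counts divided by 1 size factor per library, as the values show. Dividing a library by its smallest value above 0 gave whole numbers for 100% of genes (tolerance 0.001), and these were taken as the reads. That divisor is close to 1 in Control replicates 1 and 3 (1.004 and 0.995), where the check is weaker. The q-value (p-value scale) that the authors deposited was used only to count calls and is quoted for Tfam. The exon length that the authors deposited gave levels per kilobase.

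Log2(normalized count + 1) was modelled with limma 3.58.1 (R 4.3.3) for the 14438 genes whose mean reached 1. Genotype was the single term, the variance followed a trend with the mean, and p-values were Benjamini-Hochberg adjusted over all genes, at 0.05. All 39 members passed the filter. Intervals are 95% intervals from that fit. DESeq2 1.42.0 and edgeR's quasi-likelihood test (4.0.16) on those reads, other pseudocounts, filters and scalings, a replicate block, a robust fit and leaving out each library were alternatives. edgeR called 1786 genes and tested 36 of the 39 members. Simulated data for Control against Tfam cKO had 14352 genes tested. There limma recovered 73% of genes changed by 1 on the log2 scale and 98% of those changed by 2, with 6 false among 177 calls. The simulation gave every gene the same spread beyond counting noise and changed fewer genes than were called in the data. Only genes above a floor on the Control mean were changed. Polg2, Tefm and Mtrf1 (Control means 7.81, 8.21 and 4.94) lie below it, and these rates do not describe them. Depth was 1441152 to 1714770 reads per library, and the members' precision is limited by 41 to 872 reads a gene.

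The members and lists were chosen with earlier results of these data known. Values in every library are given for Tfam, the pair with the smallest p in each role, and the most and least abundant member per kilobase (Hsd17b10 and Mtif3). Non-members named are those called, besides genes said to be singled out later. Of the members, 11 share exon bases with another gene of the table, at most 29.1% of a member's counted bases with any single other gene. Sequences are from RefSeq (GRCm38.p6). Transcripts of mitochondrial DNA itself were not analysed here. Figures were drawn with matplotlib 3.10.9.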

Additional observations from a re-analysis of the deposited data

How the results depend on the processing

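Tfam kept its direction in all alternatives run, with a log2 fold change of -0.94 to -0.57 when 1 library was left out. Its call ended without a filter on low values (-0.81, adjusted p = 0.207) and with DESeq2 (-0.80, adjusted p = 0.0586), and the number of members called was then 0, as it was without any 1 Control library or Tfam cKO replicate 1. Leaving out 1 library gave 0 to 1 members called, all lower, and 1 to 3 of the other mitochondrial factors, all lower. It gave 3 to 4 genes of the regulator list (2 to 3 higher, 1 lower). It gave 891 to 1807 calls over all genes (545 to 834 higher, 346 to 973 lower), fewest without Control replicate 1. Without a filter 303 genes were called (199 higher, 104 lower), with 0 of the other factors and 0 lower genes of the regulator list. In that fit 23420 genes entered both the adjustment and the variance trend, and the part of each was not tested. DESeq2 called 1134 genes (600 higher, 534 lower).

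The sign of 9 members changed in some alternatives, none of them called in any. Top1mt, at 0.32 in the main fit, was the farthest of them from 0, and its sign changed only without Tfam cKO replicate 1. With 1 library left out the log2 fold change ran from -0.18 to 0.22 for Fastkd1, -0.010 to 0.13 for Lig3, -0.49 to 0.070 for Polg2, -0.14 to 0.14 for Ptcd1, -0.24 to 0.12 for Supv3l1, -0.20 to 0.38 for Tfb1m, -0.073 to 0.24 for Tfb2m, -0.23 to 0.055 for Tk2 and -0.057 to 0.75 for Top1mt. Fastkd1 was -0.030 after quantile normalization and -0.0017 after rescaling by the median of ratios, and with edgeR Tfb1m was -0.0070 and Ptcd1 -0.0012. The members' median log2 fold change lay between -0.01 and 0.08 in all alternatives.

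Libraries with the same replicate number were not shown to be paired, with correlations of their deviations from the group means of -0.23, 0.01 and 0.09. With the replicate number as a block 1290 genes and 1 member were called, Tfam had an adjusted p of 0.0239, and among the non-members named only the call of Mrm1 ended (0.0580).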
